A study of Mus musculus with 18 samples.

Results

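The heat shock proteins, the J proteins and the subunits of the TRiC chaperonin were examined in cultured primary microglia of the mouse; microglia are the brain's own macrophages. The genes were chosen by name: protein-coding genes of the Hspa, Hspb, Hspd, Hspe, Hsph and Hsp90 families, the Dnaja, Dnajb and Dnajc families, the Cct genes and Tcp1, together with the regulators Bag3 and Hsf1. Of 81 genes with such names, the 70 with at least 100 counts over the 18 libraries were kept, out of 54532 genes in the table. The genes were thus selected on their total counts, and Hspb8 (127 counts) lay just inside the minimum and Hspa1l (67 counts) just outside it. Hspb1, the best known small heat shock protein gene, also stayed outside with 46 counts. All 70 genes passed the filter on low counts and were tested.

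Chaperones hold unfolded proteins, help them to fold and hand failed ones on for degradation. HSP70 proteins bind and release short unfolded stretches in a cycle driven by ATP; J proteins (HSP40) deliver clients and start the hydrolysis of ATP, and nucleotide exchange factors such as HSP110 and BAG3 reset the cycle. HSP90 acts later on kinases and receptors, HSP60 and HSP10 form a folding chamber in mitochondria, and TRiC is the ring-shaped chamber of the cytosol that folds actin and tubulin. In stressed cells the transcription factor HSF1 induces the cytosolic set, while the unfolded protein response induces the set of the endoplasmic reticulum (ER). In microglia, chaperones are known for a part in handling aggregated proteins that the cells take up, tau among them.

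The cells were grown from newborn mouse pups in mixed culture before microglia were isolated. They were Trem2+/+ or carried 1 copy of the R47H form of TREM2, a lipid-sensing receptor of microglia, labelled hTrem2 R47H/+ and written R47H/+ here. Cells were pre-treated for 6 h, and the 4 groups without inhibitor received DMSO at 0.01%. The 6 groups of 3 libraries were Trem2+/+ without tau, Trem2+/+ with 0N4R tau fibrils at 1 ug per ml, R47H/+ without tau, R47H/+ with tau, R47H/+ with 1 uM MK-2206 (which blocks the kinase Akt) without tau, and R47H/+ with MK-2206 and tau. No Trem2+/+ group received MK-2206, so its effect is known in R47H/+ cells alone. Nothing in the labels states that replicates came from separate cultures or animals, and p-values therefore reflect only the spread among these samples, which may be technical.

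The libraries held between 16288531 and 20686299 counts. The balance of long and short genes was shifted towards short ones in 2 libraries: relative to the group median, the log2 level fell by 1.27 for each 10-fold increase of gene length in Trem2+/+ replicate 3 and by 0.60 in replicate 2 of R47H/+ with tau, while the 16 others had slopes between -0.10 and 0.19. These are called the length-shifted libraries below, and results that rest on them are given with and without them. Trem2 lay between 128 and 1894 CPM (counts scaled to a common library size by TMM). The 12 microglia markers summed to between 5466 and 11262 CPM, with Siglech the lowest of them at 0.11 CPM or less in every group mean. C1qa, C1qb and Csf1r were the highest of them in every group. Group means of Tmem119 lay between 0.64 and 1.57 CPM, of Sall1 between 6.58 and 12.9 CPM, and of P2ry12 between 8.30 and 35.8 CPM. The 12 neuron markers summed to between 1.72 and 4.72 CPM. Astrocyte markers summed to between 54.9 and 107 CPM, fibroblast and vascular markers to between 6.41 and 107 CPM, and border macrophage, monocyte and granulocyte markers to between 577 and 1561 CPM. The fibroblast and vascular sum was higher in each group with tau than in its counterpart without, at group means of 45.1 against 11.2 CPM in Trem2+/+, 84.5 against 31.3 CPM in R47H/+ and 103 against 33.3 CPM with MK-2206; 2 of its 12 markers were at 0 in every library and 9 were under 1 CPM in every group. Kdr made up most of that sum, with group means of 41.1, 78.9 and 98.5 CPM with tau and 8.64, 28.0 and 31.0 CPM without, in the same order. The 12 astrocyte markers also had higher sums with tau, at 98.8 against 78.9, 89.3 against 68.8 and 101 against 63.5 CPM. Of them, Aldh1l1 was higher with tau (71.2 against 27.2, 73.1 against 50.5 and 85.8 against 39.0 CPM). Fabp7 was lower (10.3 against 31.3, 7.01 against 9.56 and 7.76 against 16.9 CPM), as was Aldoc. Under 1 CPM in every group were 5 of the 12. The oligodendrocyte list, which lay between 226 and 311 CPM per library, had higher sums with tau too. In that list Cnp was higher with tau (168 against 63.4, 199 against 101 and 181 against 75.9 CPM) and Mbp lower (86.4 against 122, 57.7 against 100.04 and 72.7 against 114 CPM). The border macrophage, monocyte and granulocyte sum was lower with tau, at 951 against 1163, 626 against 729 and 638 against 760 CPM. Its markers went both ways. Mrc1 was lower with tau (334 against 477, 195 against 462 and 285 against 522 CPM), as were Pf4 and F13a1. Ly6c2 was higher (146 against 4.66, 177 against 12.3 and 119 against 4.01 CPM), as were S100a8 and Chil3. The part of these markers in the results was not tested. In bulk RNA, fewer cells of a type and less RNA per cell cannot be told apart.

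Promoters of the genes were searched first, because the genes fall under different controls. RefSeq (GRCm38.p6) gave 75 promoter windows of 250 bases before the start site for 57 of the 70 genes, beside 32851 windows of all genes. The genes without a window, which were not searched, included Hspa8, Hsp90aa1, Hsp90ab1 and Hspa9. A pair of facing heat shock units, GAANNTTC or TTCNNGAA, was present in 21.3% of the windows of these genes (14 genes) and in 12.8% of all windows. A run of 3 such units was present in 5.33% (Hspd1, Hspe1 and Dnajb6) against 0.466% of all windows. These were 4 windows, and those of Hspd1 and Hspe1 overlap, as do the 2 of Dnajb6. The same sites are thus counted repeatedly in this share. The share for pairs also holds overlapping windows, such as those of Hsph1. The ER stress element, which is CCAAT followed after 9 bases by CCACG, was present in 4% (Hspa5, Hsp90b1 and Dnajc3) against 0.113%. Both strands were searched, overlapping matches were counted, and a match is a description of the letters, not evidence of binding.

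The following stretches show the heat shock pairs of the 2 inducible HSP70 genes, HSP110, the HSP60 and HSP10 pair and 2 J proteins, all 5′ to 3′ on the strand of the gene, with the letters of the units in capitals. The stretch of Hspe1 lies in the region it shares with Hspd1, which starts on the opposite strand.
Hspa1a, chr17:34972228-34972285, minus strand: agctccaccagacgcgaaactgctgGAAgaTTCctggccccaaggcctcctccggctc
Hspa1b, chr17:34959310-34959367, minus strand: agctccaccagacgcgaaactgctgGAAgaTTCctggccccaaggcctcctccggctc
Hsph1, chr5:149636357-149636374, minus strand: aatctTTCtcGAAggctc
Hspe1, chr1:55088054-55088081, plus strand: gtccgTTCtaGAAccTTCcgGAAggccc
Dnaja1, chr4:40722319-40722376, plus strand: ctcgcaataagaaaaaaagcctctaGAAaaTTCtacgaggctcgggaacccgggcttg
Dnajb6, chr5:29735847-29735869, plus strand: tccgaGAAtcTTCcgGAAcgcta

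The stretches of Hspa1a and Hspa1b are alike letter for letter, and over the whole windows 247 of 250 bases (98.8%) were identical. Those of Hsph1, Hspe1, Dnajb6 and, below, Hspa5 are kept short because a transcript in GENCODE M21 runs over them. The next stretches show the ER stress elements, with their letters in capitals. Hsp90b1 has 2 of them on opposite strands.
Hspa5, chr2:34772020-34772048, plus strand: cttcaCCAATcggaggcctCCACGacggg
Hsp90b1, chr10:86705513-86705681, minus strand: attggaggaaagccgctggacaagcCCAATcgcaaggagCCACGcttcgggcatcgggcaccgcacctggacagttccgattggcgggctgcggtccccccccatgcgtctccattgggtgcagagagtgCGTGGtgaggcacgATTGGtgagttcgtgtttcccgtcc
Dnajc3, chr14:118937802-118937870, plus strand: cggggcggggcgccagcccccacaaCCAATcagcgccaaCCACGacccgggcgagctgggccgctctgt

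Levels differed far more between the genes than between the groups. The 70 genes took between 0.628% and 0.773% of a library's counts. Per length, the constitutive cytosolic HSP70 gene Hspa8 led with a mean level of 320.9 CPM per kb, followed by the HSP90 gene Hsp90ab1 at 272 and the ER HSP70 gene Hspa5 at 159.9 CPM per kb. No other gene passed 100 CPM per kb, and 10 lay under 1. Those 10 included the stress-inducible Hspa1a (0.255 CPM per kb) and Hspa1b (0.328), the small heat shock protein genes Hspb6, Hspb8 and Hspb9, and Dnajb4. The TRiC genes had a median of 38.0 CPM per kb and the genes grouped by name as small heat shock proteins a median of 0.857 CPM per kb. Across the 6 groups, the highest group mean was a median of 1.58 times the lowest, and 33 of the 70 genes stayed within 1.5-fold. Hspa1a (5.26-fold), Hspa1b (3.35-fold), Dnajb14 (3.12-fold), Dnajc28 (2.96-fold) and Dnajb4 (2.81-fold) had the widest ranges of group means.

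**Figure D1:**
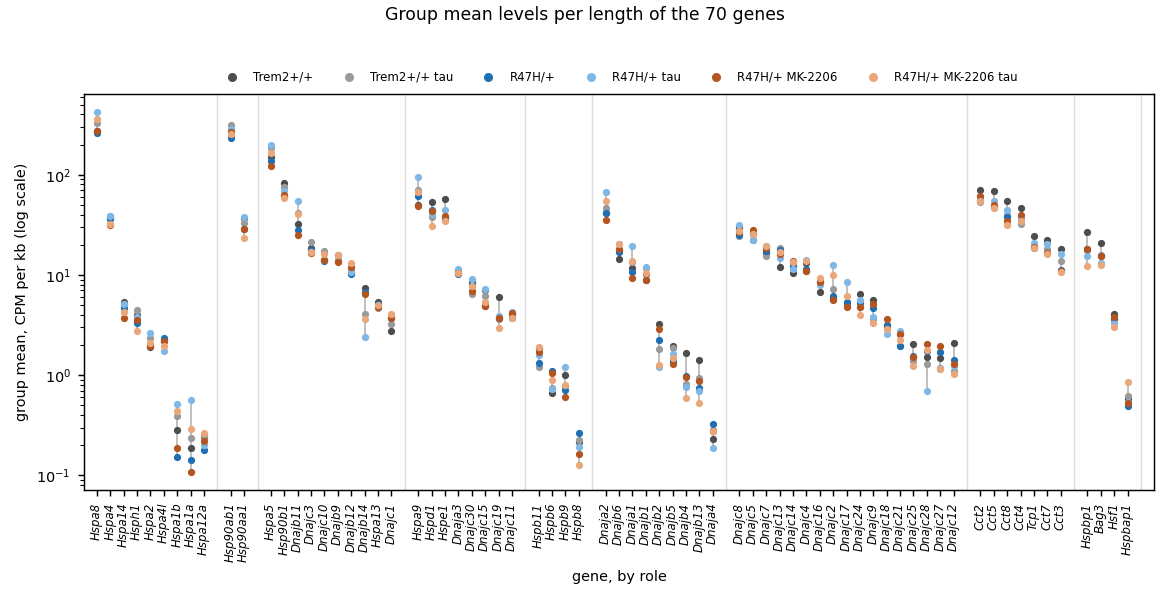
Group mean levels of the 70 genes in CPM per kb of gene length on a log axis, ordered by role; each point is the mean of 3 libraries and grey lines join the lowest and highest group. Hspa8, Hsp90ab1 and Hspa5 lie above 100 CPM per kb, and the points of most genes lie close together on this axis.

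Each gene was tested in 7 pairwise comparisons and 2 interactions by edgeR's quasi-likelihood F-test in 1 model of all 18 libraries, and a gene is called at an adjusted p under 0.05 over all 13267 genes tested. In the 7 pairwise comparisons 33 genes were called at least once and 37 never. Tau fibrils gave the most calls. In R47H/+ cells tau raised 15 of the 70 genes, among them Hspa8, Hspa5, Hspa9, Hsp90aa1, Dnajb11 and Dnaja1, and lowered 5, among them Dnajb14 and Dnajc28; of all genes tested, 15.0% rose and 12.6% fell. In Trem2+/+ cells tau raised 2 (Hspa9 and Dnajb6) and lowered 8, against 14.4% and 12.1% of all genes. In R47H/+ cells with MK-2206 tau raised 8 and lowered 8, against 14.3% and 11.3% of all genes. The shares of the 70 genes called, 14.3%, 28.6% and 22.9% in Trem2+/+, R47H/+ and R47H/+ with MK-2206, stood beside 26.5%, 27.6% and 25.6% of all genes. With all libraries, the share in R47H/+ cells was thus near the background, and the other shares were below it. This order rested on the length-shifted libraries. Without them the share in Trem2+/+ cells was near the background, and that in R47H/+ cells was below it.

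Without both length-shifted libraries, 28, 24 and 30 of the 70 genes were called with tau in Trem2+/+, R47H/+ and R47H/+ with MK-2206, and 41.4%, 42.8% and 48.0% of all genes. Of the 70, 15 then rose and 13 fell in Trem2+/+, 16 rose and 8 fell in R47H/+, and 12 rose and 18 fell with MK-2206. The wide gap between the genotypes in the number of genes raised was thus seen only with the length-shifted libraries. Every gene called with tau in Trem2+/+ or in R47H/+ with MK-2206 was called again, as were 19 of the 20 in R47H/+, where Hspa2 was lost. The genes gained in Trem2+/+ included Hspa5 (log2 change 0.52), Dnajb11 (0.62), Dnajc2 (0.72), Dnaja1 (0.58), Hspa8 (0.33) and Dnaja2 (0.38), all called higher in R47H/+ cells too.

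The 3 tau comparisons share no libraries. Dnajb14, Hspa9 and Dnajb2 were called in the same direction in all 3. Between Trem2+/+ and R47H/+, 4 genes were called in both (40.0% of the 10 and 20% of the 20), the fourth being Dnajb6. Between Trem2+/+ and R47H/+ with MK-2206 the number was 5 (50% and 31.2%), which added Dnajb4 and Bag3 to the 3. Between R47H/+ and R47H/+ with MK-2206 it was 11 (55% and 68.8%), including Hspa8, Hspa1b, Hspa5, Dnajb11, Dnaja2 and Dnajc2. No gene was called in opposite directions. Over all genes tested the same 3 overlaps were 2028 genes (57.6% and 55.3% of the 2 lists), 2359 (67.0% and 69.5%) and 2458 (67.0% and 72.4%), so nothing particular to the 70 genes can be read from these shares.

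**Figure D2:**
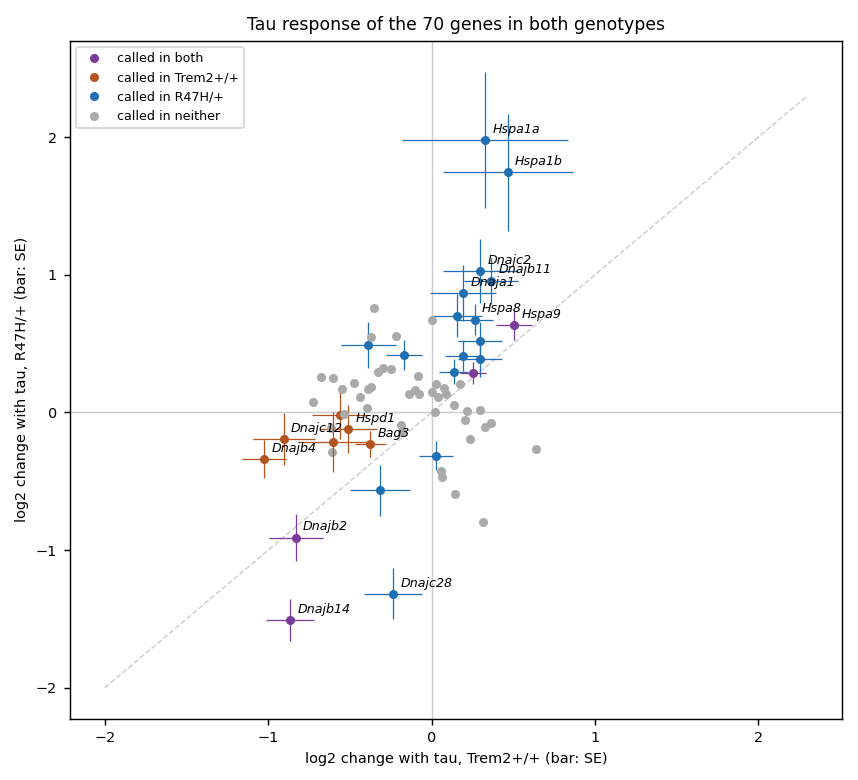
The log2 change with tau of each of the 70 genes in Trem2+/+ (x axis) and in R47H/+ cells (y axis), with standard errors for called genes; the dashed line marks equal changes. Dnajb14, Dnajb2, Hspa9 and Dnajb6 were called in both, and Hspa1a, at 0.33 and 1.98, lies farthest above the line.

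The other comparisons gave fewer calls. Without tau, R47H/+ cells had 0 of the 70 genes higher and 8 lower than Trem2+/+ cells, against 8.22% and 6.83% of all genes. This one-sided count rested on the length-shifted Trem2+/+ library: without both such libraries 9 genes were higher and 9 lower (28.9% of all genes called, 15.8% higher and 13.1% lower), and the median log2 change of the 70 moved from -0.20 to -0.00059. With tau, R47H/+ cells had 3 higher and 4 lower than Trem2+/+ cells (5.25% and 4.24% of all genes; 21 genes, and 23.3% of all, without the length-shifted libraries). MK-2206 changed 0 of the 70 in R47H/+ cells without tau by edgeR, where 1.19% of all genes were higher and 1.36% lower; 3 of the 70 had an unadjusted p under 0.05, DESeq2 also called 0, and 5 were called without the length-shifted libraries (13.9% of all genes). With tau, MK-2206 raised 2 and lowered 3 (1.64% and 1.40% of all genes; 14, and 12% of all, without the length-shifted libraries). The comparisons that use the R47H/+ libraries with tau, namely tau in R47H/+, R47H/+ against Trem2+/+ with tau and MK-2206 with tau, share those libraries. Likewise, tau in R47H/+, the genotype without tau and MK-2206 without tau share the R47H/+ libraries without tau. Tau in Trem2+/+ shares libraries with both genotype comparisons, and tau with MK-2206 shares libraries with both inhibitor comparisons. Values for a gene in such comparisons are set side by side below and not counted as repeats.

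**Figure D3:**
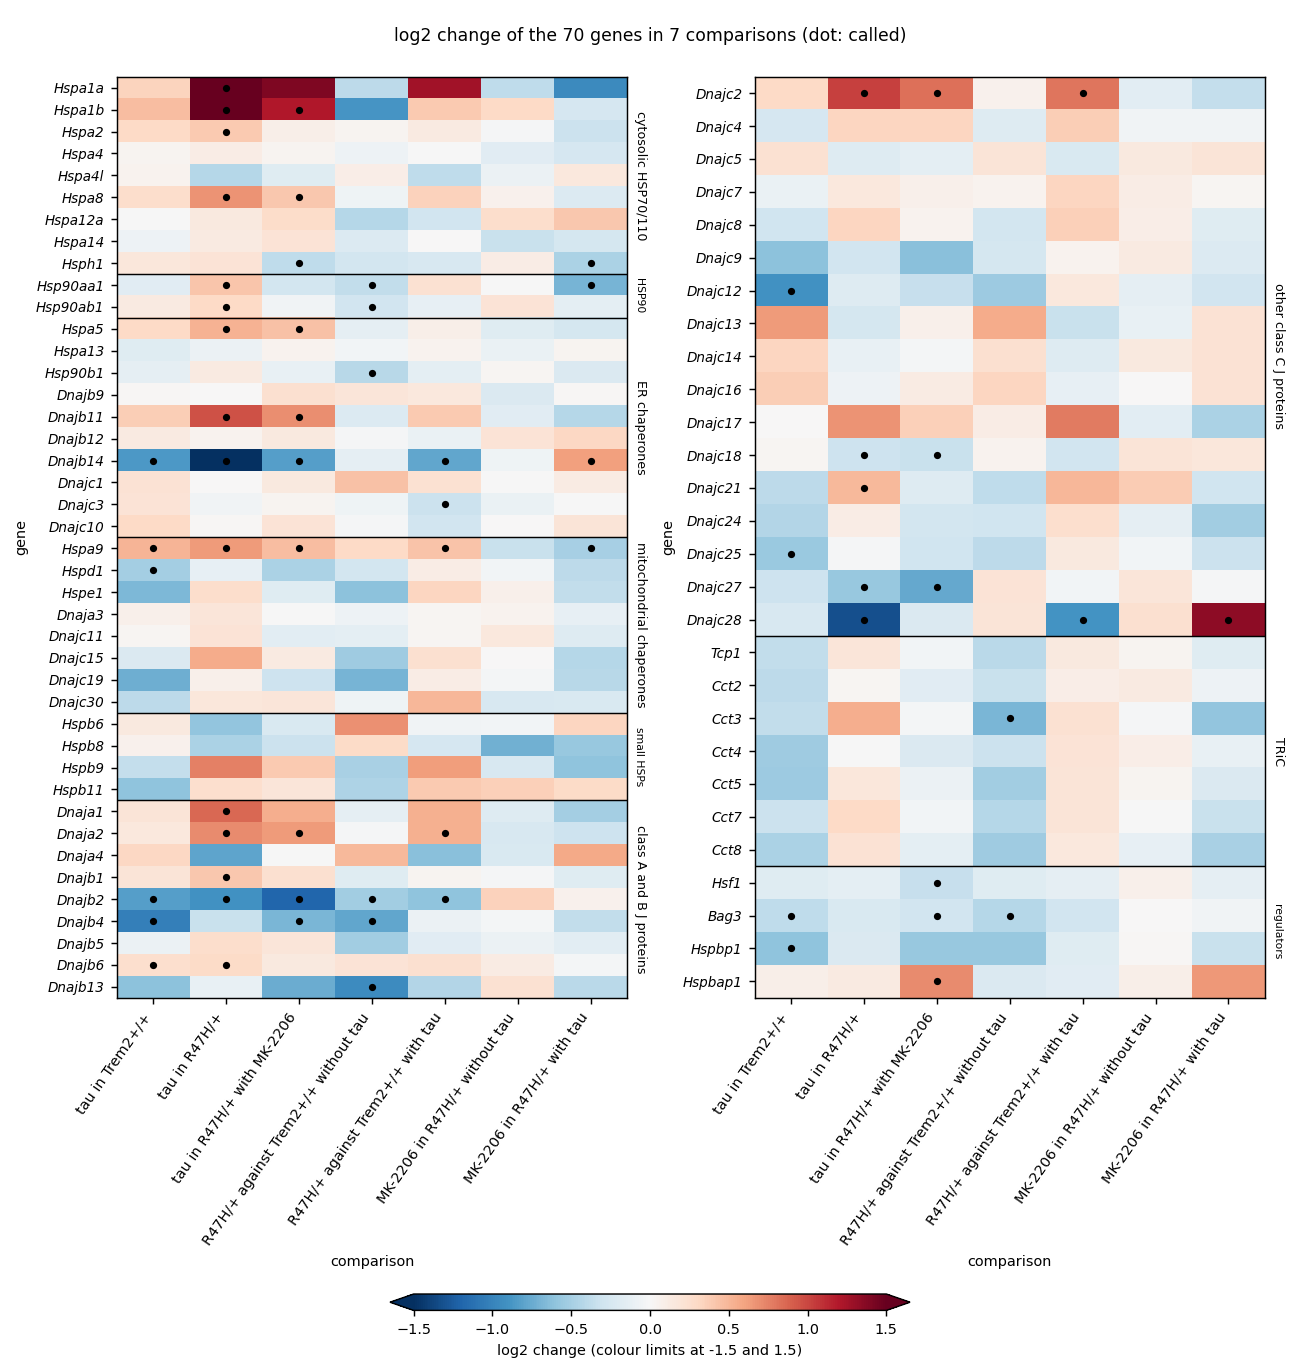
The log2 change of the 70 genes in the 7 pairwise comparisons, by role; colours saturate at 1.5 in either direction and a dot marks a called gene. The column of tau in R47H/+ holds the most dots (20) and that of MK-2206 without tau holds 0; the Hspa1a change with tau in R47H/+ (1.98) is beyond the colour limit.

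Among the cytosolic HSP70 and HSP110 genes, 4 of 9 rose with tau in R47H/+ cells: Hspa8, Hspa1a, Hspa1b and Hspa2. Of all genes 15.0% rose. Without the length-shifted libraries 3 of the 9 rose, where 42.8% of all genes were called. Hspa8 encodes HSC70, the abundant constitutive HSP70. It measured 1152, 1130 and 1111 CPM in R47H/+ cells and 1682, 2095 and 1641 CPM with tau. The 3 libraries with tau were all above the 3 without, and the highest was the length-shifted one. The log2 change was 0.68 (SE 0.11, adjusted p = 0.000282), or 0.54 without that library. Of the 100-base stretches of its transcripts 28.2% also occur in other genes', mainly Gm15459, as do 23.4% of those of Hspd1 (mainly Hspd1-ps3) and 14.6% of those of Dnajb6 (mainly Gm2541), so the levels of these 3 genes are uncertain.
In Trem2+/+ cells Hspa8 measured 1053, 1177 and 1309 CPM without tau, against 1344, 1362 and 1548 CPM with it. These groups do not overlap either, but the change of 0.26 (SE 0.11) had an adjusted p of 0.096. With MK-2206, Hspa8 rose from 1191, 1165 and 1191 CPM to 1442, 1600 and 1646 CPM with tau (log2 change 0.40, SE 0.11, adjusted p = 0.014). The difference between the responses of the 2 genotypes, 0.41 on the log2 scale, was not called (SE 0.16, adjusted p = 0.15).

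Hspa1a and Hspa1b are neighbouring, nearly identical genes for the HSP70 that heat and misfolded proteins induce. Of the 100-base stretches of their transcripts, 48.6% and 49.9% also occur in another gene's, so the authors' counting could split or drop reads between them. Both were close to the limit of detection, with 245 and 297 counts in all 18 libraries. The summed counts of the pair were 12, 17 and 17 in R47H/+ cells, against 45, 69 and 47 with tau. In the MK-2206 groups they were 13, 16 and 18 without tau and 35, 35 and 38 with it. In Trem2+/+ cells they were 43, 16 and 16 without tau and 38, 41 and 26 with it. The groups with and without tau were thus apart in R47H/+ cells, with or without the inhibitor, and overlapped in Trem2+/+ cells, where 1 library without tau was above all 3 with tau.
In R47H/+ cells Hspa1a rose from a mean of 0.42 ± 0.075 to 1.68 ± 0.63 CPM (SD, n = 3; log2 change 1.98, SE 0.50, adjusted p = 0.0069). Hspa1b rose from 0.43 ± 0.24 to 1.45 ± 0.31 CPM (SD, n = 3; log2 change 1.74, SE 0.42, adjusted p = 0.0056). Without the length-shifted libraries both changes were 1.65. With MK-2206, Hspa1b rose by 1.20 (SE 0.42, adjusted p = 0.0445), while the Hspa1a change of 1.40 (SE 0.54) had an adjusted p of 0.070. The changes in Trem2+/+ cells were 0.33 (SE 0.51) for Hspa1a and 0.47 (SE 0.40) for Hspa1b, and neither interaction of genotype and tau was called (adjusted p = 0.18 and 0.20).

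Hsph1 encodes HSP110, which resets HSP70 and takes part in the breaking up of aggregates. Its level was 29.5, 29.7 and 24.0 CPM in R47H/+ cells with tau and 21.2, 20.1 and 18.6 CPM with MK-2206 and tau. Each library with the inhibitor was below each without it. The log2 change was -0.47 (SE 0.10, adjusted p = 0.020). With MK-2206 present, tau lowered Hsph1 from 26.3, 26.6 and 25 CPM (log2 change -0.38, SE 0.10, adjusted p = 0.011), while its changes with tau without the inhibitor were 0.17 in Trem2+/+ and 0.21 in R47H/+ cells, neither called. Hspa2, a form best known from testis, rose by 0.39 with tau in R47H/+ cells (adjusted p = 0.042) and was not called without the length-shifted libraries (adjusted p = 0.053). With all libraries, Hspa4, Hspa4l, Hspa12a and Hspa14 were called in no comparison.

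Both cytosolic HSP90 genes were lower in R47H/+ than in Trem2+/+ cells without tau and rose with tau in R47H/+ cells. These differences share the libraries of R47H/+ without tau and are not repeats of each other. Hsp90aa1, the stress-inducible form, measured 141, 133 and 161 CPM in Trem2+/+, against 120.0, 106 and 111 CPM in R47H/+ cells without tau. With tau it measured 115, 125 and 146 CPM in Trem2+/+, against 151, 153 and 146 CPM in R47H/+ cells. With MK-2206 it measured 123, 113 and 100.4 CPM without tau, against 89.8, 96.6 and 90.7 CPM with it. The lowest of the 6 groups was thus R47H/+ with MK-2206 and tau, whose 3 libraries lay below all 15 others.
Tau raised Hsp90aa1 in R47H/+ cells by 0.42 on the log2 scale (SE 0.11, adjusted p = 0.0097). In Trem2+/+ cells its change was -0.17 (SE 0.11, adjusted p = 0.27), and the interaction of genotype and tau was called (0.59, SE 0.16, adjusted p = 0.037), although not in a fit of these 4 groups alone. MK-2206 lowered it in cells with tau by 0.70 (log2 change -0.70, SE 0.11, adjusted p = 0.0023). The interaction of MK-2206 and tau, -0.70, was not called (SE 0.16, adjusted p = 0.074), and was called without the length-shifted libraries (adjusted p = 0.0017). Of its 100-base stretches 38.0% also occur in other genes' transcripts, mainly the pseudogene Gm12346, so its level is uncertain.

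Hsp90ab1, the constitutive form, measured 786, 814 and 941 CPM in Trem2+/+, against 696, 697 and 689 CPM in R47H/+ cells without tau (log2 change -0.29, SE 0.09, adjusted p = 0.039). With tau it rose in R47H/+ cells to 817, 914 and 826 CPM (log2 change 0.30, SE 0.09, adjusted p = 0.0205). The 3 libraries of R47H/+ without tau were the lowest of all 18. In the MK-2206 groups it measured 762, 812 and 822 CPM without tau, against 771, 783 and 765 CPM with it, a change of -0.05 that was not called.

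**Figure D4:**
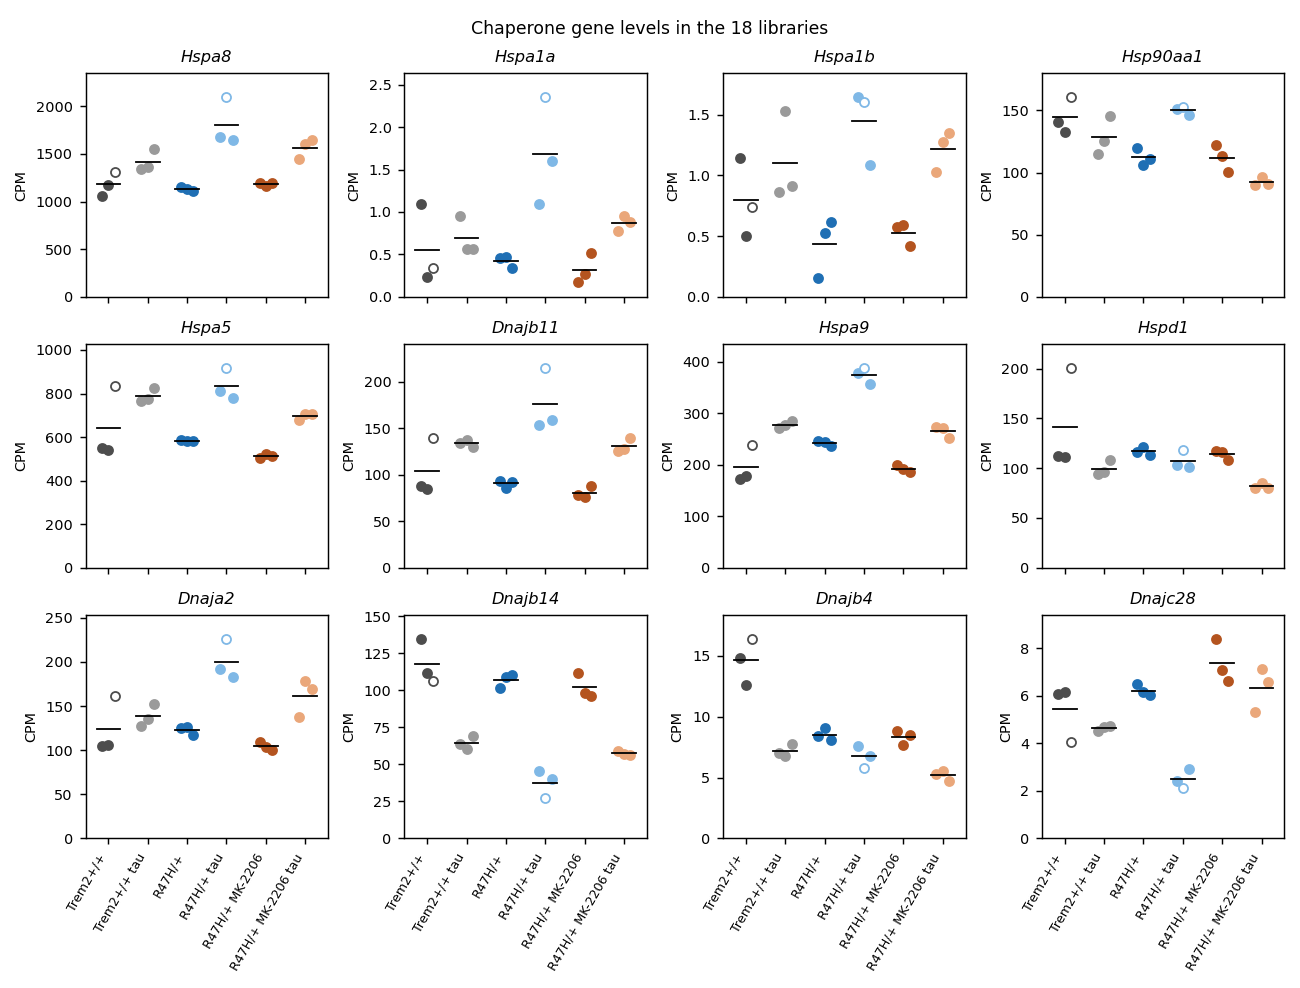
Levels of 12 of the genes in CPM in each of the 18 libraries, with a line at each group mean of 3 libraries; open points are the 2 length-shifted libraries. Dnajb14 lies between 96.3 and 135 CPM in the 9 libraries without tau and between 27.5 and 69.3 CPM in the 9 with tau, and the open points lie above the filled ones of their group for Hspa5, Dnajb11 and Hspd1.

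Among the 10 ER chaperone genes, Hspa5 and Dnajb11 rose with tau in R47H/+ cells with and without MK-2206, and Dnajb14 fell in all 3 tau comparisons. Hspa5 encodes BiP, the HSP70 of the ER and the sensor partner of the unfolded protein response. It measured 585, 579.9 and 582 CPM in R47H/+ cells and 812, 917 and 778 CPM with tau (log2 change 0.52, SE 0.13, adjusted p = 0.0083). With MK-2206 it measured 502, 523 and 513 CPM without tau, against 679, 705 and 708 CPM with tau (log2 change 0.44, SE 0.13, adjusted p = 0.022). In Trem2+/+ cells it measured 549.7, 540.2 and 834 CPM without tau, the last in the length-shifted library, and 764, 775 and 825 CPM with tau. That one library put the groups into overlap: the change was 0.30 (adjusted p = 0.115) with it and 0.52 (adjusted p = 2e-07) without.
Dnajb11, a soluble J protein that works with BiP, showed the same layout. It measured 93.4, 85.9 and 92.1 CPM in R47H/+ cells and 154, 215 and 159 CPM with tau (log2 change 0.96, SE 0.17, adjusted p = 0.0004), and 0.78 without the length-shifted library. With MK-2206 it measured 77.6, 75.7 and 87.8 CPM without tau, against 126, 128 and 139 CPM with tau (log2 change 0.70, SE 0.17, adjusted p = 0.0047). In Trem2+/+ cells the values were 87.6, 84.9 and 139 CPM without tau, against 134, 137 and 129.9 CPM with it.

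Dnajb14, a J protein anchored in the ER membrane, had the largest fall of the 70 genes with tau in R47H/+ cells. It measured 102, 109 and 111 CPM without tau, against 45.5, 27.5 and 40.1 CPM with it (log2 change -1.51, SE 0.15, adjusted p = 1.44e-06; -1.34 without the length-shifted library). In Trem2+/+ cells it fell from 135, 112 and 107 to 63.8, 60.7 and 69.3 CPM (log2 change -0.87, SE 0.15, adjusted p = 0.00033). With MK-2206 it fell from 112, 98.2 and 96.3 to 59.2, 57.4 and 56.4 CPM (log2 change -0.83, SE 0.15, adjusted p = 0.00048). The groups with tau lay apart from each other as well. R47H/+ cells with tau were lower than Trem2+/+ cells with tau (-0.78, adjusted p = 0.0032), and MK-2206 raised the gene in R47H/+ cells with tau (0.61, SE 0.15, adjusted p = 0.038).

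The 3 genes with an ER stress element in the printed promoters did not move together. Hspa5 rose with tau as given above. Hsp90b1, the ER form of HSP90, measured 291, 294 and 416 CPM in Trem2+/+, against 256, 248 and 245 CPM in R47H/+ cells without tau. It was called lower in R47H/+ (-0.42, SE 0.13, adjusted p = 0.044; -0.23 without the length-shifted library) and in no tau comparison. Dnajc3, an ER co-chaperone that also restrains the stress kinase PERK, was lower in R47H/+ than in Trem2+/+ cells with tau, at 92.9, 81.7 and 88.2 against 107, 105 and 117 CPM (-0.32, SE 0.09, adjusted p = 0.0415). With all libraries, Hspa13, Dnajb9, Dnajb12, Dnajc1 and Dnajc10 were called in no comparison.

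Of a list of 35 tested genes for ER folding and the unfolded protein response, 9 rose and 4 fell with tau in R47H/+ cells, 4 rose and 3 fell in Trem2+/+ cells, and 4 rose and 3 fell with MK-2206. Of all genes, 15.0% rose and 12.6% fell in R47H/+, 14.4% and 12.1% in Trem2+/+, and 14.3% and 11.3% with MK-2206. The counts for the other lists with tau are to be read against the same shares. Without the length-shifted libraries, 12 of the list rose and 4 fell in R47H/+, 10 and 4 in Trem2+/+, and 10 and 8 with MK-2206. Of all genes, 42.8%, 41.4% and 48.0% were then called, in the same order. Those shares also hold for the other lists in that fit. Xbp1, the transcription factor of the IRE1 branch, rose in all 3 comparisons (log2 changes 0.53, 0.40 and 0.37). Edem1, a factor of ER-associated degradation, fell with tau in R47H/+ cells without (-0.66) and with MK-2206 (-0.54), and Eif2ak3, which encodes PERK, fell likewise (-0.95 and -0.55). Ddit3, which encodes the stress factor CHOP, rose with tau in Trem2+/+ cells (1.75, SE 0.30, adjusted p = 0.00037) and was higher in R47H/+ than in Trem2+/+ cells without tau (1.93, SE 0.30, adjusted p = 0.00032) and with tau (1.53, SE 0.30, adjusted p = 0.0036). With tau, Pdia4, a disulfide isomerase of the ER, was lower in R47H/+ than in Trem2+/+ cells (-0.49, SE 0.08, adjusted p = 0.0011).

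Among the 8 mitochondrial chaperone genes, only Hspa9 was called higher with tau by the model of all libraries, and it was so in all 3 comparisons. Without the length-shifted libraries 3 of the 8 were called higher in Trem2+/+ cells. Hspa9 encodes mortalin, the HSP70 that pulls proteins into the mitochondrial matrix. It measured 171, 178 and 238 CPM in Trem2+/+ cells and 271, 278 and 285 CPM with tau (log2 change 0.51, SE 0.11, adjusted p = 0.0025). In R47H/+ cells it measured 245, 243 and 236 CPM without tau, against 378, 388 and 357 CPM with it (log2 change 0.63, SE 0.11, adjusted p = 0.00038). With MK-2206 it measured 199, 191 and 185 CPM without tau, against 273, 271 and 251 CPM with it (log2 change 0.46, SE 0.11, adjusted p = 0.0045).
With tau R47H/+ was higher than Trem2+/+ (0.43, SE 0.11, adjusted p = 0.021) and higher than R47H/+ with MK-2206 (-0.50 for the inhibitor, SE 0.11, adjusted p = 0.022). Without tau the same differences, 0.30 for the genotype and -0.33 for the inhibitor, were not called (adjusted p = 0.077 and 0.17); without the length-shifted libraries they were 0.46 (adjusted p = 8.4e-06) and -0.32 (adjusted p = 0.00041). Neither interaction was called (0.13 and -0.17), so no difference in the size of the tau response was detected.

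Hspd1 (HSP60) and Hspe1 (HSP10), partners in the folding chamber, share the promoter region printed above, and both were highest in the length-shifted Trem2+/+ library. Hspd1 measured 112, 111 and 201 CPM in Trem2+/+ cells and 93.7, 96.0 and 108 CPM with tau; Hspe1 measured 37.3, 42.2 and 172 CPM and 49.4, 58.6 and 48.7 CPM. Hspd1 was called lower with tau (-0.51, SE 0.17, adjusted p = 0.039), a change of -0.18 without the length-shifted library. The Hspe1 change of -0.68 (SE 0.42) was not called, and turned to 0.38 without that library (adjusted p = 0.0037). In R47H/+ cells Hspd1 measured 116, 121 and 113 CPM without tau, against 103, 118 and 101 CPM with it, a change that was not called. With MK-2206 it measured 117, 117 and 108 CPM without tau, against 80.5, 85.4 and 79.8 CPM with it, where the change of -0.48 (SE 0.17) had an adjusted p of 0.053. With all libraries, Dnaja3, Dnajc11, Dnajc15, Dnajc19 and Dnajc30 were called in no comparison.

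Of 24 other mitochondrial folding and protease genes, 4 rose and 1 fell with tau in R47H/+ cells, and 2 rose and 1 fell in each of the other tau comparisons. Without the length-shifted libraries, 5 rose and 4 fell in R47H/+, 3 and 1 in Trem2+/+, and 3 and 8 with MK-2206. Tomm70a, the import receptor that takes proteins over from HSP70 and HSP90, rose in all 3 (log2 changes 0.40, 0.55 and 0.74 in Trem2+/+, R47H/+ and R47H/+ with MK-2206). Timm23, the channel through which mortalin pulls, rose in R47H/+ cells (0.65, SE 0.15, adjusted p = 0.0034).

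The 4 genes grouped by name as small heat shock proteins, Hspb6, Hspb8, Hspb9 and Hspb11, were called in no comparison. Together they summed to between 4.91 and 9.58 CPM per library, with the highest sum in the length-shifted Trem2+/+ library. Hspb11 alone measured 7.63 CPM in that library.

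Class A and B J proteins are the general partners of cytosolic HSP70. Of the 9 genes here, 4 rose with tau in R47H/+ cells (Dnaja1, Dnaja2, Dnajb1 and Dnajb6) and 1 fell (Dnajb2), against 15.0% and 12.6% of all genes. In Trem2+/+ cells Dnajb6 rose and Dnajb2 and Dnajb4 fell, against 14.4% and 12.1% of all genes. Without the length-shifted libraries, 4 rose and 1 fell in R47H/+, and 3 rose and 3 fell in Trem2+/+ cells. Dnaja1 measured 98.7, 89.3 and 89.2 CPM in R47H/+ cells and 151, 194 and 160.3 CPM with tau (log2 change 0.87, SE 0.21, adjusted p = 0.0046). Dnaja2 measured 125, 127 and 117 CPM in R47H/+ cells and 192, 226 and 183 CPM with tau (log2 change 0.70, SE 0.16, adjusted p = 0.0028). In both cases no library with tau reached down to those without. Dnaja2 also rose with tau under MK-2206, from 109, 104 and 101 to 138, 178 and 169 CPM (0.63, SE 0.16, adjusted p = 0.0058), and with tau it was higher in R47H/+ than in Trem2+/+ cells (0.54, SE 0.16, adjusted p = 0.039).
Dnajb1, the J protein most often paired with inducible HSP70, moved less: it measured 28.5, 27.2 and 30.7 CPM in R47H/+ cells and 37.0, 40.9 and 36.9 CPM with tau (log2 change 0.41, SE 0.11, adjusted p = 0.010). Dnajb6, known for holding back the aggregation of polyglutamine proteins, rose by 0.25 in Trem2+/+ (adjusted p = 0.029) and by 0.29 in R47H/+ cells (adjusted p = 0.014).

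Dnajb2, a J protein with ubiquitin-binding motifs that passes clients to the proteasome, was lower in all 3 tau groups. It measured 13, 11.8 and 16.5 CPM in Trem2+/+ cells and 8.47, 8.04 and 6.65 CPM with tau (log2 change -0.83, SE 0.17, adjusted p = 0.0013). In R47H/+ cells it measured 8.49, 9.94 and 10.3 CPM without tau, against 4.20, 4.71 and 6.34 CPM with it (log2 change -0.91, SE 0.17, adjusted p = 0.00079). With MK-2206 it fell from 11.9, 11.9 and 12.7 to 5.93, 4.96 and 5.04 CPM (log2 change -1.19, SE 0.17, adjusted p = 5.3e-05). R47H/+ cells were lower than Trem2+/+ cells without tau (-0.52, adjusted p = 0.042, not called without the length-shifted libraries at 0.057) and with tau (-0.60, adjusted p = 0.037).
Dnajb4 was set apart in 1 group: it measured 14.9, 12.6 and 16.4 CPM in Trem2+/+ cells without tau, and the 15 other libraries lay between 4.75 and 9.06 CPM. It fell with tau in Trem2+/+ cells (log2 change -1.02, SE 0.14, adjusted p = 2.71e-05) and was lower in R47H/+ than in Trem2+/+ cells without tau (-0.78, SE 0.14, adjusted p = 0.00079). In R47H/+ cells it measured 8.38, 9.06 and 8.10 CPM without tau, against 7.61, 5.80 and 6.80 CPM with it, a change of -0.34 (SE 0.14) that was not called. With MK-2206 it fell with tau from 8.85, 7.67 and 8.50 to 5.31, 5.53 and 4.75 CPM (-0.68, SE 0.14, adjusted p = 0.0015). The interaction of genotype and tau, 0.69, was not called, and was called at the same size without the length-shifted libraries (adjusted p = 0.016). Dnajb13, a J protein of cilia, was lower in R47H/+ than in Trem2+/+ cells without tau (-0.94, SE 0.30, adjusted p = 0.042), but its libraries of 4.68, 4.13 and 2.90 against 1.80, 1.29 and 3.02 CPM overlapped, and 11.2% of its exons lie opposite Ucp2.

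The other 17 class C J proteins do more specialised work. With tau, 2 rose and 3 fell in R47H/+ cells (15.0% and 12.6% of all genes), 0 rose and 2 fell in Trem2+/+ cells (14.4% and 12.1%), and 1 rose and 2 fell with MK-2206 (14.3% and 11.3%). Dnajc2 sits on ribosomes and meets nascent chains together with HSPA14. It measured 30.4, 30.8 and 32.5 CPM in R47H/+ cells and 57.1, 81.4 and 52.4 CPM with tau (log2 change 1.03, SE 0.23, adjusted p = 0.0033; 0.80 without the length-shifted library). It rose under MK-2206 too, from 28.3, 28.5 and 27.4 to 52.2, 50.7 and 46.5 CPM (0.83, SE 0.23, adjusted p = 0.014). In Trem2+/+ cells it measured 22.1, 21.9 and 45.6 CPM without tau, against 31.0, 37.3 and 41.7 CPM with it, where the length-shifted library lay above every library with tau; the change was 0.30 with it and 0.72 without. Its partner gene Hspa14 was not called with all libraries.

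Dnajc28 was low in 1 group. It measured 2.43, 2.12 and 2.91 CPM in R47H/+ cells with tau, and the 15 other libraries lay between 4.05 and 8.39 CPM. The change with tau in R47H/+ cells, from 6.48, 6.14 and 6.03 CPM, was -1.32 (SE 0.19, adjusted p = 4.99e-05). In Trem2+/+ cells the change was -0.24 and not called. With tau, R47H/+ cells were lower than Trem2+/+ cells (-0.89, SE 0.19, adjusted p = 0.0059), and MK-2206 raised the gene to 5.31, 7.12 and 6.57 CPM (1.34, SE 0.19, adjusted p = 0.00064). These 3 differences share the libraries of R47H/+ with tau. The interaction of genotype and tau was called (-1.08, SE 0.26, adjusted p = 0.0195), and that of MK-2206 and tau (1.10) was called without the length-shifted libraries (adjusted p = 0.012) and not with them.
Dnajc27, which joins a J domain to a Rab-like GTPase, fell with tau in R47H/+ cells without (-0.57) and with MK-2206 (-0.77, SE 0.19, adjusted p = 0.0052). Dnajc18 fell in the same comparisons (-0.31 and -0.33). Dnajc12 (-0.90, SE 0.19, adjusted p = 0.0019) and Dnajc25 (-0.56) fell with tau in Trem2+/+ cells, and Dnajc21, a factor of ribosome assembly, rose with tau in R47H/+ cells (0.49, SE 0.17, adjusted p = 0.041). The interaction of genotype and tau was called for Dnajc21 (0.88, SE 0.24, adjusted p = 0.042). Long genes of this class followed the length-shifted libraries: Dnajc13, an endosomal J protein, measured 176, 179 and 72.0 CPM in Trem2+/+ cells and 213, 116 and 196 CPM in R47H/+ cells with tau. The remaining members of the class were called in no comparison with all libraries.

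The TRiC genes were called in no tau comparison and no inhibitor comparison by the model of all libraries; without the length-shifted ones, Cct7 was called higher with tau in Trem2+/+ (0.23) and Cct3 higher in R47H/+ (0.34), while Cct2 (-0.19), Cct4 (-0.23) and Cct8 (-0.17) were called lower with tau in R47H/+ with MK-2206. In the same fit MK-2206 lowered Cct3 (-0.39, adjusted p = 0.000685) and Cct8 (-0.38, adjusted p = 0.0014) in R47H/+ cells with tau. Their sum was 814, 855 and 1715 CPM in Trem2+/+ cells without tau, and 857, 1126 and 827 CPM in R47H/+ cells with tau, and the 2 high values are those of the length-shifted libraries. The sums of the 16 other libraries lay between 759 and 858 CPM. Per length, Cct3 was the lowest subunit in all 18 libraries, and Cct2 the highest in all but the 2 length-shifted ones, where Cct5 was. The ratio of the highest to the lowest subunit lay between 3.33 and 5.85. In the assembled complex, the rings hold all subunits in equal number.
Cct3 was called lower in R47H/+ than in Trem2+/+ cells without tau, at 77.2, 69.8 and 65.7 against 87.2, 89.4 and 167 CPM (log2 change -0.69, SE 0.20, adjusted p = 0.029). Without both length-shifted libraries the change was -0.32 (adjusted p = 0.0015), and the call was lost when Trem2+/+ replicate 3 or any R47H/+ library was left out alone. Cct6a, the remaining subunit gene, is listed with another biotype and is not among the 70; it lay between 61.5 and 138 CPM. Tcp1, the gene of the first subunit known, measured 104, 108 and 160.0 CPM in Trem2+/+, against 98.2, 90.6 and 90.9 CPM in R47H/+ cells without tau (-0.41, SE 0.14, adjusted p = 0.058).

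**Figure D5:**
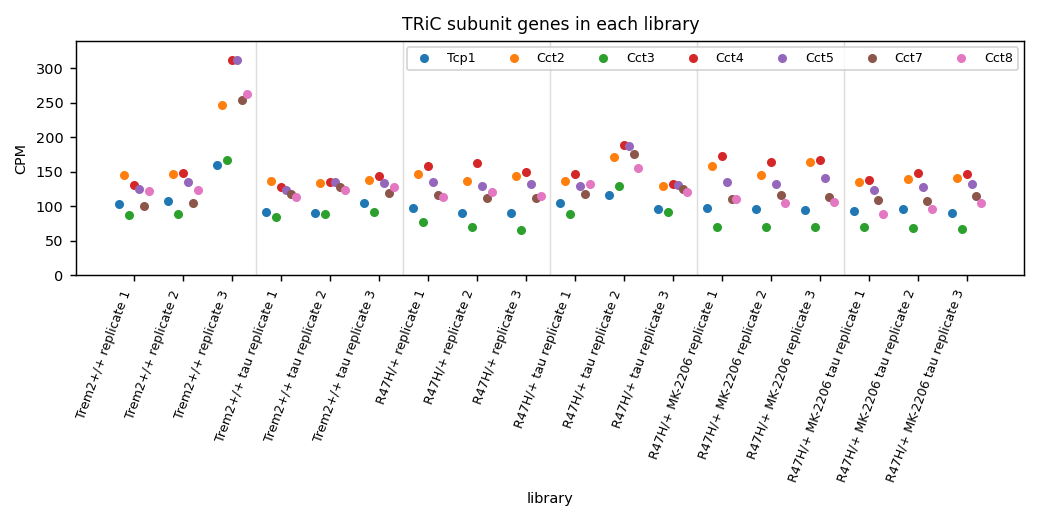
CPM of the 7 TRiC subunit genes in each of the 18 libraries, ordered by group. Trem2+/+ replicate 3 (sum 1715 CPM) and R47H/+ with tau replicate 2 (sum 1126 CPM) stand above the other 16 libraries, whose sums lie between 759 and 858 CPM.

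Actin and tubulin are the main clients of TRiC. Of 12 actin and tubulin genes tested, 11 were lower in R47H/+ than in Trem2+/+ cells without tau, with and without the length-shifted libraries (median log2 change -0.70, against -0.02 over all genes). Of all genes 6.83% were lower with all libraries and 13.1% without the length-shifted ones. Tubb6 (-0.98, SE 0.11, adjusted p = 1.19e-05) and Tubb2a (-0.98, SE 0.11, adjusted p = 1.06e-05), both beta tubulins, and Actg1 (-0.68, SE 0.09, adjusted p = 7.16e-05), a cytoplasmic actin, led the list. With tau, 8 of 12 rose in R47H/+ cells, led by Tubb4b (1.66, SE 0.14, adjusted p = 1.44e-07) and Tubb6 (1.30, SE 0.11, adjusted p = 3.33e-07). Without the length-shifted libraries 9 rose and 1 fell. This rise and the lower level without tau share the R47H/+ libraries without tau and are not repeats of each other. In Trem2+/+ cells 2 rose and 3 fell, among them Tubb2b (-1.32, SE 0.16, adjusted p = 1.08e-05) and Actg1 (-0.67). Without the length-shifted libraries 5 rose and 4 fell there. MK-2206 lowered 8 of 12 in R47H/+ cells with tau, among them Tubb2a (-1.14) and Tubb4b (-1.05). Of 17 tested genes for prefoldin and other TRiC cofactors, Pdcl fell with tau in Trem2+/+ cells (-0.32, SE 0.11, adjusted p = 0.045). No other was called in a pairwise comparison with all libraries. Without the length-shifted ones, 4 rose and 1 fell with tau in Trem2+/+, 5 and 2 in R47H/+, and 4 and 3 with MK-2206. For the genotype, 6 were higher and 0 lower without tau, and 5 and 1 with tau. MK-2206 raised 1 and lowered 0, both without and with tau. The shares of all genes called in that fit are given above.

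Among the regulators, Bag3 and Hsf1 did not rise with tau in any group. Bag3, the exchange factor that links HSP70 to autophagy and is itself a target of HSF1, measured 57.2, 54.2 and 47.9 CPM in Trem2+/+ cells without tau, above all 15 other libraries, which lay between 30.4 and 41.9 CPM. It fell with tau in Trem2+/+ cells to 40.7, 41.3 and 40.8 CPM (log2 change -0.38, SE 0.10, adjusted p = 0.0077) and was 37.4, 39.2 and 41.3 CPM in R47H/+ cells without tau (-0.43, SE 0.10, adjusted p = 0.0051). In R47H/+ cells with tau it was 32.8, 35.6 and 32.1 CPM (-0.23, adjusted p = 0.088). With MK-2206 it fell with tau from 38.5, 41.9 and 38.4 to 34.8, 31.9 and 30.4 CPM (-0.29, SE 0.10, adjusted p = 0.034).
Hsf1 itself measured 24.7, 25.6 and 27.0 CPM in R47H/+ cells and 21.1, 24.2 and 24.7 CPM with tau, a change that was not called. With MK-2206 it fell with tau from 24.7, 26.5 and 30.0 to 22.5, 19.8 and 21.5 CPM (-0.35, SE 0.11, adjusted p = 0.034). Hspbp1, a second exchange factor, fell with tau in Trem2+/+ cells (-0.60, SE 0.21, adjusted p = 0.049), a change of -0.25 without the length-shifted library. Hspbap1, named for binding a small heat shock protein, rose with tau under MK-2206 from 5.02, 4.16 and 5.70 to 8.20, 8.84 and 7.27 CPM (0.71, SE 0.18, adjusted p = 0.0069).

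Other genes of these pathways followed no single direction. Of 31 co-chaperone genes, 6 rose and 3 fell with tau in R47H/+ cells, 2 rose and 4 fell in Trem2+/+ cells, and 1 rose and 5 fell with MK-2206. Without the length-shifted libraries, 7 rose and 5 fell in R47H/+, 10 and 7 in Trem2+/+, and 5 and 14 with MK-2206. Stip1, which joins HSP70 to HSP90, rose with tau in R47H/+ cells (0.55, SE 0.10, adjusted p = 0.00071) and was lowered by MK-2206 in the presence of tau (-0.46, SE 0.10, adjusted p = 0.024). Bag2, an exchange factor known to bind tau, fell with tau in Trem2+/+ cells (-1.62, SE 0.35, adjusted p = 0.0022) and under MK-2206 (-1.97, SE 0.42, adjusted p = 0.0019), and was lower in R47H/+ than in Trem2+/+ cells without tau (-1.60, SE 0.35, adjusted p = 0.0046). Of 17 heat shock factors and other genes listed as HSF1 targets, 4 rose and 0 fell with tau in R47H/+ cells, 2 rose and 3 fell in Trem2+/+ cells, and 3 rose and 0 fell with MK-2206. Without the length-shifted libraries, 9 rose and 1 fell in R47H/+, 5 and 2 in Trem2+/+, and 7 and 2 with MK-2206. Mlkl, better known as the effector of necroptosis, rose in all 3 (log2 changes 1.94, 3.26 and 2.32 in R47H/+, Trem2+/+ and R47H/+ with MK-2206). Sqstm1, the autophagy receptor p62, rose with tau in R47H/+ cells (0.68, SE 0.10, adjusted p = 8.6e-05), and its difference between the genotypes was called (0.58, SE 0.14, adjusted p = 0.024).

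The interactions ask whether the response to tau differed between the genotypes, or with MK-2206. For genotype and tau, 3 of the 70 genes were called, Hsp90aa1 and Dnajc21 higher and Dnajc28 lower (2.05% and 3.32% of all genes; 8 of the 70, and 11.9% of all, without the length-shifted libraries). The median of the 70 was 0.27 on the log2 scale with all libraries and 0.01 without the length-shifted ones. For MK-2206 and tau, 0 were called by edgeR (0.181% and 0.196% of all genes), 8 had an unadjusted p under 0.05, DESeq2 called 3, and 7 were called without the length-shifted libraries (4.94% of all). Those 7 were Hsp90aa1 (-0.68), Dnajc28 (0.99), Hsph1 (-0.54), Dnajb14 (0.50), Cct3 (-0.39), Hsp90ab1 (-0.29) and Dnajc21 (-0.61). All 7 had the same sign with all libraries.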

How the data were processed

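Gene expression was measured by bulk RNA-seq in 18 libraries, 6 groups of 3. The authors' deposited table holds raw counts per gene, 1 column per library; STAR, featureCounts, DESeq2 and the build GRCm38 (mm10) are named per the submitters' processing notes, and versions, settings and strandedness are not given in the sources used here. Groups came from the sample titles and treatments. Counts were scaled by TMM, filtered with filterByExpr (13267 genes tested) and fitted with edgeR 4.0.16 in R 4.3.3 by the quasi-likelihood F-test, 1 mean per group, 12 residual degrees of freedom; adjusted p-values are Benjamini-Hochberg over all genes tested, with a threshold of 0.05. SE is the log2 change divided by the square root of F. CPM per kb uses the deposited gene length. Totals of 16288531 to 20686299 counts set the precision, which is low for genes such as Hspa1a. Replicates differed by more than sampling noise (chi-square per gene 3.30 to 262), so none was merged. The fits were tested on simulated data. The alternatives tried were DESeq2 1.42.0, scaling by RLE, dropping the count filter, the compared groups alone, the replicate number as a block, a lowess offset on gene length, leaving out both length-shifted libraries, and leaving out each library. Promoters are from RefSeq, and shared 100-base stretches were counted in GENCODE M21 transcripts. The genes and lists were chosen with earlier results of these data known. Genes named are a set of well-known family members and, per pairwise comparison, up to 6 called higher and 6 lower by p-value whose mean log2 CPM was 1 or more (4 and 4 per interaction), up to 3 genes of each other list per comparison, and any of the 70 with its values.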

Additional observations from a re-analysis of the deposited data

Results flagged for a closer look

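In 3 of the 70 genes the response to tau differed between Trem2+/+ and R47H/+ cells by the interaction term of edgeR's model. Hsp90aa1 differed by 0.59 on the log2 scale (SE 0.16, adjusted p = 0.037), with a change of -0.17 in Trem2+/+ and 0.42 in R47H/+ cells. Dnajc21 differed by 0.88 (SE 0.24, adjusted p = 0.042), with changes of -0.39 and 0.49. Dnajc28 differed by -1.08 (SE 0.26, adjusted p = 0.0195), with changes of -0.24 and -1.32. Without both length-shifted libraries the 3 differences were 0.49, 0.56 and -0.81 and were still called. None of the 3 was called in a fit of the 4 groups alone.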

How the results depend on the processing

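All called changes of named genes kept their direction under every alternative: of 850 values, 644 stayed past the threshold, 206 did not and 0 reversed. Without both length-shifted libraries the numbers of the 70 genes called were 28, 24 and 30 with tau (Trem2+/+, R47H/+, R47H/+ with MK-2206), 18 and 21 for the genotype without and with tau, 5 and 14 for MK-2206, and 8 and 7 for the interactions with genotype and with MK-2206. The counts of the other fits, here and with the replicate block, stand without the share of all genes called in the same fit. They show how the calls depend on the processing and are not results about the 70 genes. In fits of the compared groups alone the tau counts were 3, 18 and 31, the genotype count without tau was 0, the MK-2206 counts were 8 and 2, and the interactions gave 0 and 2. Without a count filter they were 12 for tau in R47H/+, 2 and 3 for the genotype, 2 for MK-2206 with tau and 1 for genotype by tau. DESeq2 gave 14 and 11 for the genotype, 5 for genotype by tau and 3 for MK-2206 by tau; the gene length offset gave 13 for the genotype without tau, 5 for genotype by tau and 2 for MK-2206 by tau. The cause was not tested. Leaving out 1 library gave 6 to 19, 14 to 19 and 9 to 14 with tau, 2 to 15 and 2 to 6 for the genotype, 0 to 0 and 2 to 4 for MK-2206, and 0 to 7 and 0 to 0 for the interactions.

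With the replicate number as a block the counts were 7, 18 and 14 with tau, 3 and 5 for the genotype, 0 and 5 for MK-2206, and 1 and 0 for the interactions. Libraries that share a number share only that: same-number correlations were -0.14 to 0.20, with 2 of 21 over 0.1, so the numbers do not pair the samples.

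Over the 70 genes and 9 comparisons, 103 of 630 values changed sign without both length-shifted libraries; 0 of them were called with all libraries and 6 without these. Among the genes chosen for these checks the values were, for tau in Trem2+/+, Hsp90b1 0.035 and Hspe1 0.38; for tau in R47H/+, Hspe1 -0.12; for the genotype without tau, Hspa8 0.019, Hspa5 0.094, Hspd1 0.067, Hspe1 0.46 and Dnaja1 0.27; with tau, Hspe1 -0.044 and Dnajb1 -0.014; for MK-2206, Hsp90aa1 0.0016 without tau, and Hspe1 0.0030 and Bag3 0.0012 with it; for genotype by tau, Hspa5 -0.083, Hspa9 -0.062, Hspd1 -0.024 and Hspe1 -0.50. With the length offset they were Dnaja1 -0.066 (tau, Trem2+/+), Hsf1 0.016 (tau, R47H/+), and Bag3 0.056 (MK-2206 with tau), -0.028 (genotype by tau) and 0.045 (MK-2206 by tau). Hsp90aa1 with MK-2206 without tau was 0.00014 with RLE scaling and 0.0046 without a filter.

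Leaving out 1 library at a time, changes that crossed 0 ranged as follows. For tau in Trem2+/+, Hspa1a ranged from -0.0731 to 1.31, Hsp90b1 from -0.257 to 0.0168 and Hspe1 from -1.04 to 0.362; for tau in R47H/+, Hspe1 from -0.106 to 0.420. For the genotype without tau, Hspa1a ranged from -0.792 to 0.594, Hspa5 from -0.248 to 0.0729, Hspd1 from -0.421 to 0.0451, Hspe1 from -0.976 to 0.436 and Dnaja1 from -0.310 to 0.244; with tau, Hspe1 from -0.0420 to 0.484 and Dnajb1 from -0.0355 to 0.126. For MK-2206 without tau, Hspa1b ranged from -0.119 to 0.647, Hsp90aa1 from -0.0754 to 0.0685, Hspd1 from -0.0568 to 0.000468, Dnajb1 from -0.0765 to 0.0345, Bag3 from -0.0333 to 0.0458 and Hsf1 from -0.00997 to 0.131. For genotype by tau, Hsph1 ranged from -0.0150 to 0.139, Hspe1 from -0.0955 to 1.31 and Hsf1 from -0.0404 to 0.143. At these depths Hspa1a and Hspa1b, with 3 to 41 counts a library for Hspa1a, have wide errors, and small changes in them were not detectable.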
